A study of Mus musculus with 2 samples.

Results

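Kidney tubules move drugs, toxins and metabolites from blood to urine through membrane transporters, and 29 of their genes were followed as a group. They were the organic anion and cation carriers of the Slc22 family, the multidrug and toxin extruder *Slc47a1*, the organic anion transporting polypeptides of the Slco family, the export pumps of the ABC families and the 2 subunits of the organic solute transporter. The genes were chosen by symbol as transporters of drugs and organic ions in the proximal tubule (PT), and all 29 were found among the 32285 genes counted. The 2 single-cell libraries from postischemic kidneys of male mice, 1 mouse per genotype, were compared. The *Cre-* control mouse was a littermate without the Cre transgene. The other mouse (PHDTiEC) carried the endothelial, tamoxifen-inducible transgene Cdh5-CreERT2 with the floxed alleles Phd1f/f, Phd2f/f and Phd3f/f. These encode the 3 prolyl hydroxylases that mark hypoxia-inducible factors for breakdown, and PT cells are not a target of this Cre. Both mice, at an age of 8 to 10 weeks, had 25 minutes of clamping of 1 renal artery, 4 intraperitoneal injections of 3 mg tamoxifen from day 1 after injury, every other day, and kidney collection on day 14.

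PT cells take organic anions and cations up from the blood across the basolateral membrane and release them into urine across the apical brush border. Basolateral uptake rests on OAT1 (*Slc22a6*), OAT3 (*Slc22a8*) and OCT2 (*Slc22a2*), and apical release on MATE1 (*Slc47a1*), MRP2 (*Abcc2*), MRP4 (*Abcc4*) and BCRP (*Abcg2*). These carriers set the renal clearance of many drugs, and PT cells that lose their differentiated state after injury are known for the injury marker *Havcr1* (KIM-1).

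After filtering, 8548 of the *Cre-* barcodes and 9309 of the PHDTiEC barcodes were kept as cells, with a median of 7500 and 7898 unique molecular identifiers (UMIs, each standing for 1 captured transcript). Among all kept cells, 28 barcodes occurred in both libraries, and 6 of the 1588 PT-like cells had such a barcode. In endothelial-like cells, the level of *Egln1* (PHD2) was 67.2 CPM, its UMIs divided by all UMIs of the class and scaled to 1000000, in the *Cre-* library and 202 CPM in the other, that of *Egln3* (PHD3) was 26.4 and 160 CPM, and that of *Egln2* (PHD1) was 43.2 and 39.3 CPM. None of the 3 floxed genes was clearly lower at the level of 3′ transcript ends, which need not lie in the deleted part, so the genotype is given as the library labelled PHDTiEC. With 1 library per genotype there is no replicate check, and every interval below is a 95% exact binomial (Clopper-Pearson) interval that covers counting error only.

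Cells were clustered without the 29 transporters, and 1 cluster led by *Slc34a1*, *Miox* and *Slc13a1* was called intact PT-like, while 1 cluster led by *Havcr1* and *Vcam1* was called injured PT-like. The intact PT-like class held 427 *Cre-* and 594 PHDTiEC cells, and the injured class 289 and 278 cells. *Slc34a1*, the phosphate cotransporter of the differentiated PT, stood at 2248 and 2004 CPM in intact and at 149 and 247 CPM in injured cells of the *Cre-* and PHDTiEC libraries. In the injured class, 20 cells held 69.0% and 68.9% of these *Slc34a1* UMIs. *Havcr1* stood at 304 and 160 CPM in intact and at 857 and 691 CPM in injured cells. The classes were named from these markers, so the levels describe them and are no check of the names. Intact is relative. At least 1 *Havcr1* UMI was found in 60.4% of intact *Cre-* and 49.8% of intact PHDTiEC cells, against 85.5% and 84.2% of injured cells. The median depth was 19709 and 17812.5 UMIs per intact cell and 21010 and 22574.5 UMIs per injured cell.

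Summed over the 29 genes, the transporters made up 1690 CPM of the *Cre-* and 1536 CPM of the PHDTiEC intact PT-like cells. In injured PT-like cells the sum was 666 and 644 CPM. Macrophage-like cells, which served as a class not expected to carry PT transporters, had 159 and 152 CPM. That sum includes *Slco2b1* (56.0 and 47.9 CPM), *Abcc3* (31.7 and 32.0 CPM) and *Abcb1b* (28.9 and 31.4 CPM), so it is no background level for the list. Of the 29 genes, 16 had their highest level in intact PT-like cells in both libraries, 11 had it in another named class in both, and for none was the injured PT-like class the highest in both. The 16 genes were the carriers *Slc22a2*, *Slc22a6*, *Slc22a8*, *Slc22a12*, *Slc22a13*, *Slc22a18*, *Slc22a19*, *Slc22a28*, *Slc22a29* and *Slc22a30*, with *Slco1a6*, *Slc47a1*, *Slc51a*, *Slc51b*, *Abcc2* and *Abcg2*. The list was chosen as PT transporters, so these counts only describe it, and no share over all genes is given beside them.

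Within the list, specificity for the PT differed widely. For *Slc22a6*, 94.3% and 93.2% of all UMIs in kept cells fell in the PT-like classes of the *Cre-* and PHDTiEC libraries, and for *Abcc2* the shares were 93.3% and 92.8%. *Abcg2*, which exports urate and many drugs, was shared with the endothelium: 75.4% and 76.5% of its UMIs lay in PT-like cells, and endothelial-like cells held 124 and 172 CPM. *Slco2a1*, the prostaglandin transporter, had only 18.5% and 17.2% of its UMIs in PT-like cells, and reached 238 and 186 CPM in pericyte-like cells. *Slco3a1* was at 146 and 204 CPM in DCT-like cells of the distal convoluted tubule, and 20.6% and 13.5% of its UMIs were in PT-like cells. Most transcripts of both genes were thus captured outside the PT-like classes. Macrophage-like cells were the highest class for *Slco2b1*, at 56.0 and 47.9 CPM. *Abcc3* (MRP3) was highest in urothelial-like cells, at 115 and 80.0 CPM, as was *Abcc4* at 64.7 and 82.5 CPM. The P-glycoprotein genes, whose pumps guard barrier tissues, were low in PT-like cells, with *Abcb1b* at 28.9 and 31.4 CPM in macrophage-like cells and *Abcb1a* at 12.9 and 7.91 CPM in endothelial-like cells. In the PT-like classes some members were hardly seen at all. *Slco4c1*, a basolateral carrier of digoxin and thyroid hormone in the PT, had 7 and 6 UMIs in all intact cells. *Slc22a7* (OAT2) had 1 UMI in the intact class of each library, so no level can be given.

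**Figure D1:**
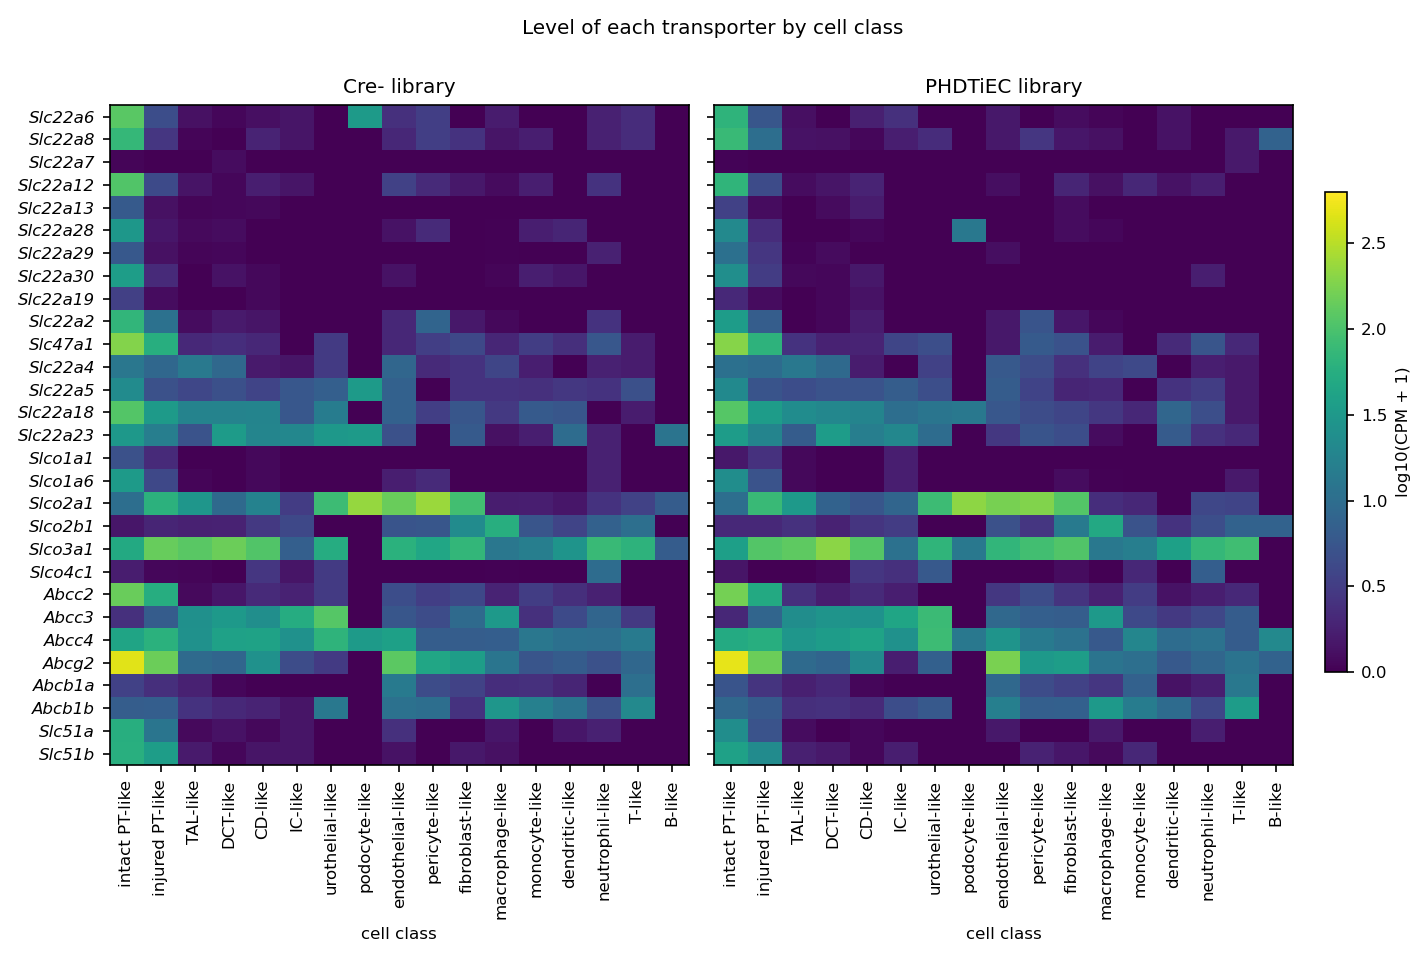
Level of each of the 29 transporters (rows) in each named cell class (columns), with the Cre- library on the left and the PHDTiEC library on the right, coloured by log10 of CPM + 1. Slc22a6, Slc22a8, Slc22a12, Abcc2, Slc47a1, Slc51a and Slc51b are bright in the intact PT-like column and dark in nearly all others, whereas Slco2a1, Slco3a1, Abcc3 and Abcc4 are bright in other columns. The podocyte-like column rests on 20 and 51 cells.

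Injured PT-like cells were then set against intact PT-like cells within each library, which asks which carriers the *Havcr1*-rich cells still transcribe. Most of the list was lower in injured cells, with large differences for the organic anion carriers *Slc22a6*, *Slc22a12* and *Slc22a28*, while the prostaglandin transporter *Slco2a1*, *Slco3a1* and *Abcc3* were higher. Of the 29 genes, 27 had at least 10 UMIs over the classes compared in each library. *Slc22a7* and *Slco4c1* did not. Of these 27, 16 were at least 2-fold lower in injured cells in both libraries, a share of 59.3%, and 5.01% of the 13926 genes measured in the same way were (697 genes). Another 3 of the 27, or 11.1%, were at least 2-fold higher in both, below the 14.2% of all genes (1979 genes). The median log2 ratio of the transporters was -1.76 in each library, and that of all genes was 0.28 in each. The classes were built from the same cells, so these contrasts describe the cells grouped by state and are no test of injury.

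The organic anion carriers come first. *Slc22a6* stood at 119 CPM in intact and 3.60 CPM in injured cells of the *Cre-* library, and at 65.5 and 4.61 CPM in those of the other library. Its level was thus 33.1-fold lower in injured *Cre-* cells (log2 ratio -5.05, -5.61 to -4.54) and 14.2-fold lower in injured PHDTiEC cells (-3.83, -4.35 to -3.36). *Slc22a8* stood at 71.7 and 1.74 CPM (-5.36, -6.21 to -4.63) in the *Cre-* and at 77.5 and 9.34 CPM (-3.05, -3.41 to -2.71) in the PHDTiEC library. Both genes encode the basolateral exchangers that bring p-aminohippurate, diuretics and many antibiotics into the cell. *Slc22a12* (URAT1), the apical urate reabsorber, stood at 109 and 3.25 CPM (-5.07, -5.66 to -4.53) and at 66.1 and 3.36 CPM (-4.30, -4.91 to -3.75). In injured cells of both libraries, all 3 were below their level in barcodes with under 100 UMIs, which hold mainly free RNA: 14.1 and 10.5 CPM for *Slc22a6*, 13.9 and 9.86 CPM for *Slc22a8*, and 11.6 and 7.40 CPM for *Slc22a12*. They were above their level in macrophage-like cells, where *Slc22a6*, for example, had 0.640 and 0.0832 CPM. The estimated share of free RNA in injured cells was 4.15% in the *Cre-* and 14.1% in the PHDTiEC library. Its part in these levels was not tested. After thinning to 2000 UMIs, *Slc22a6* was seen in 20.5% and 13.9% of intact cells (2 shallower *Cre-* cells left out), in 0.703% and 0.721% of injured cells and in 0.109% and 0.0130% of macrophage-like cells, and before thinning in 45.7% and 37.0%, 6.23% and 5.76%, and 0.581% and 0.0801%.

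The rodent organic anion transporters *Slc22a19*, *Slc22a28*, *Slc22a29* and *Slc22a30* lie with *Slc22a8* and *Slc22a6* on chromosome 19, between 7673061 and 8628299 in GENCODE vM21 (GRCm38). They were lower in injured cells in the same way. *Slc22a28* stood at 29.4 CPM in intact and 0.464 CPM in injured *Cre-* cells (-5.99, -7.87 to -4.62), and at 19.6 and 1.25 CPM in PHDTiEC cells (-3.97, -5.05 to -3.07). *Slc22a30* stood at 35.3 and 1.16 CPM (-4.93, -6.00 to -4.03) and at 23.1 and 2.12 CPM (-3.45, -4.25 to -2.74). *Slc22a29*, which was low throughout, stood at 4.89 and 0.348 CPM (-3.81, -6.14 to -2.18) and at 9.67 and 1.74 CPM (-2.47, -3.38 to -1.67). The injured values rest on 3 to 17 UMIs each. *Slc22a28* is uncertain as a gene separate from *Slc22a30*, because 28.0% of the 90-base words in the last 500 bases of its transcript also occur in *Slc22a30*. Reads from such words cannot be assigned to either gene. The last 500 bases of the longest *Slc22a30* transcript shared no word with another gene, so this limit was seen at the *Slc22a28* end only. *Slc22a13* (OAT10) and *Slc22a19* (OAT5) were at least 2-fold lower in both libraries as well, on 2 or 3 UMIs in each injured class, and *Slc22a13* overlaps *Slc22a14* on the same strand.

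The start regions of 5 of these carriers, all on chromosome 19, are shown because the genes were lower together in injured cells, and that of *Slco2a1* because it went the other way. Each line gives the 120 bases just before the RefSeq transcript start on the coding strand, in lower case, with the TATA box letters TATAAA in capitals where they occur. The build is GRCm38.p6, and the stretches lie at chr19:8617876-8617995 (+ strand, *Slc22a6*), chr19:8593062-8593181 (+, *Slc22a8*), chr19:6543071-6543190 (-, *Slc22a12*), chr19:8131983-8132102 (-, *Slc22a28*), chr19:8405106-8405225 (-, *Slc22a30*) and chr9:103008367-103008486 (+, *Slco2a1*).
Slc22a6: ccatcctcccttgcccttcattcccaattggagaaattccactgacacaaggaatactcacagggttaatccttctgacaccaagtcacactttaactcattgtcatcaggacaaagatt
Slc22a8: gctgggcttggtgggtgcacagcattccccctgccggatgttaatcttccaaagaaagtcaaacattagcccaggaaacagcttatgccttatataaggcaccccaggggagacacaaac
Slc22a12: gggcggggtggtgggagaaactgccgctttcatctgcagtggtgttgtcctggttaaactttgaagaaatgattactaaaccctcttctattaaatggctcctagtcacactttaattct
Slc22a28: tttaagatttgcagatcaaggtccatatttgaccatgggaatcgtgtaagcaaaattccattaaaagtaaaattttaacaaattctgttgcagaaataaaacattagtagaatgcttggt
Slc22a30: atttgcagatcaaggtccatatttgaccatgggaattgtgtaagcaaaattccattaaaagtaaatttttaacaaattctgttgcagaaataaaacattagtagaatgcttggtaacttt
Slco2a1: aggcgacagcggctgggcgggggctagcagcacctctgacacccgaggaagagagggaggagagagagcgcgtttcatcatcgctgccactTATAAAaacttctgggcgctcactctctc
The exact letters TATAAA stood 29 bases before the start of *Slco2a1* and in none of the other 5 lines. Only this string was searched, so the similar letters tatataag in the *Slc22a8* line were not marked. Motifs were searched on both strands from 250 bases before to 50 after the start, in the 25 transporters with a promoter in the RefSeq table and in all 32851 promoters of the table. A transporter was counted if any of its promoters matched (30 promoters for the 25 genes). The share of all is per promoter, so the units differ and genes with several promoters could match more easily. The HNF4 forms AAAGTCCA and AAAGTTCA were in 1 (*Abcc4*) and 2 (*Slco1a6*, *Abcb1a*) of the 25, against 1.25% and 1.19% of all promoters. The antioxidant response core TGACNNNGC was in 4, against 12.4% of all promoters, and the TATA box TATAAA in 4, against 13.6%. The lines for *Slc22a28* and *Slc22a30* are nearly the same sequence: shifted against each other, 112 of 114 bases were equal, whereas the other 14 pairs of the 6 stretches had 30.8% to 37.6% equal bases at their best shift. A match to these letters is a description of the sequence and no evidence of binding.

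Most of the organic cation and zwitterion carriers were lower as well. *Slc22a2*, the basolateral cation uptake carrier for metformin and cisplatin, stood at 69.4 and 10.2 CPM in intact and injured *Cre-* cells (-2.77, -3.10 to -2.44) and at 34.2 and 5.73 CPM in PHDTiEC cells (-2.58, -3.05 to -2.14). *Slc47a1*, which completes the path into urine at the brush border, was at 192 and 56.6 CPM (-1.76, -1.90 to -1.62) and at 194 and 63.4 CPM (-1.61, -1.75 to -1.47). Injured cells thus had a 6.80-fold lower level of the uptake carrier and a 3.38-fold lower level of the extruder in the *Cre-* library, and 5.97-fold and 3.06-fold lower levels in the other. *Slc22a5* (OCTN2), the carnitine carrier, stood at 21.3 and 3.94 CPM (-2.43, -3.00 to -1.91) and at 20.3 and 4.36 CPM (-2.22, -2.77 to -1.71), with 66.2% of its 3′-end words shared with the neighbouring *Slc22a21*. *Slc22a4* (OCTN1), the ergothioneine carrier, stood at 11.8 and 7.66 CPM (-0.62, -1.08 to -0.18) and at 9.67 and 8.47 CPM (-0.19, -0.64 to 0.24). The interval for *Slc22a4* included 0 in the library labelled PHDTiEC. The orphan carriers *Slc22a18* and *Slc22a23* had log2 ratios of -1.80 (-2.0 to -1.61) and -1.04 (-1.35 to -0.74) in the *Cre-* library, and of -1.76 (-1.95 to -1.57) and -0.97 (-1.26 to -0.70) in the other, from intact levels of 112 and 115 CPM for *Slc22a18* and 30.4 and 34.2 CPM for *Slc22a23*.

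The apical export pumps kept a sizeable level in injured cells. *Abcg2* stood at 472 and 148 CPM in intact and injured *Cre-* cells (-1.67, -1.76 to -1.58) and at 502 and 146 CPM in PHDTiEC cells (-1.78, -1.87 to -1.69). *Abcc2*, the exporter of glutathione and glucuronide conjugates, stood at 144 and 53.9 CPM (-1.41, -1.57 to -1.26) and at 164 and 49.4 CPM (-1.73, -1.89 to -1.58). *Abcg2* UMIs were found in 88.6% and 82.7% of injured cells, against 97.2% and 97.1% of intact cells and 9.17% and 9.29% of macrophage-like cells, whose median depth was 7114 and 7535 UMIs. *Abcc4*, which exports cyclic nucleotides and urate, did not follow them, with 41.8 and 60.4 CPM (0.53, 0.35 to 0.72) in the *Cre-* and 51.1 and 55.9 CPM (0.13, -0.04 to 0.30) in the PHDTiEC library. *Abcb1b* was at 5.66 and 5.80 CPM (0.04, -0.54 to 0.60) and at 7.65 and 5.23 CPM (-0.55, -1.10 to -0.02). *Abcb1a* had 12 and 13 UMIs in the injured classes.

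The basolateral organic solute transporter, which carries bile acids and steroid conjugates, works as a pair of subunits that differed here. *Slc51a* stood at 55.8 and 11.1 CPM in intact and injured *Cre-* cells (-2.32, -2.65 to -2.01) and at 22.5 and 4.23 CPM in PHDTiEC cells (-2.41, -2.97 to -1.89). *Slc51b* stood at 57.9 and 35.6 CPM (-0.70, -0.90 to -0.50) and at 39.5 and 21.3 CPM (-0.89, -1.15 to -0.64). The intervals of the subunits did not overlap in either library.

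Among the organic anion transporting polypeptides the directions were split. *Slco1a6* was lower in injured cells, at 32.3 and 3.02 CPM in *Cre-* (-3.42, -4.06 to -2.84) and at 22.7 and 4.23 CPM in PHDTiEC cells (-2.42, -2.98 to -1.91). *Slco2a1* (chr9:102988712-103096002) stood at 9.30 CPM in intact and 62.8 CPM in injured *Cre-* cells, and at 9.22 and 78.6 CPM in PHDTiEC cells. It was thus 6.75-fold (2.75, 2.44 to 3.08) and 8.52-fold higher (3.09, 2.81 to 3.38) in injured cells. *Slco2a1* UMIs were found in 59.2% and 57.9% of injured cells against 15% and 14.5% of intact cells, and after thinning each cell to 2000 UMIs in 10.6% and 13.5% against 1.76% and 1.77%. The 20 injured cells with the most held 37.7% and 37.6% of its UMIs, and macrophage-like cells had 0.689 and 1.33 CPM. *Slco3a1* stood at 49.3 and 139 CPM (1.5, 1.35 to 1.65) and at 37.0 and 111 CPM (1.59, 1.43 to 1.75). *Abcc3*, a basolateral export pump, was 3.79-fold and 6.76-fold higher in injured cells, on 15 and 14 UMIs in the intact classes. *Slco1a1* went in opposite directions in the libraries, with 41 and 10 UMIs in intact and injured *Cre-* cells and 7 and 12 UMIs in PHDTiEC cells, and 1 intact *Cre-* cell held 23 of the 41. *Slco2b1* had 5 to 15 UMIs in each class.

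Genes of other cell types moved with the injured class. The 5 pericyte and smooth muscle markers, all detected in each class, together stood at 199 and 237 CPM in injured and at 10.3 and 38.5 CPM in intact cells, and the 7 endothelial markers, also all detected, at 62.1 and 145 CPM against 8.82 and 17.8 CPM. These are cell types with high *Slco2a1*, and their part in its level was not tested. Markers of other tubule cells moved too. The 5 collecting duct markers stood at 154 and 326 CPM in injured and at 55.4 and 47.4 CPM in intact cells. Those of intercalated cells and of the DCT were also higher in injured cells of both libraries. The 5 thick ascending limb markers stood at 248 and 381 CPM against 336 and 300 CPM, so their direction differed. Among named classes *Slco3a1* was highest in DCT-like cells, and the part of these tubule cells in its level was not tested. The 7 macrophage markers were alike, at 210 and 229 CPM in injured and 190 and 241 CPM in intact cells. Mitochondrial transcripts made up a median of 3.93% and 2.94% of UMIs in injured cells and 10.4% and 8.18% in intact cells, and their part was not tested.

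**Figure D2:**
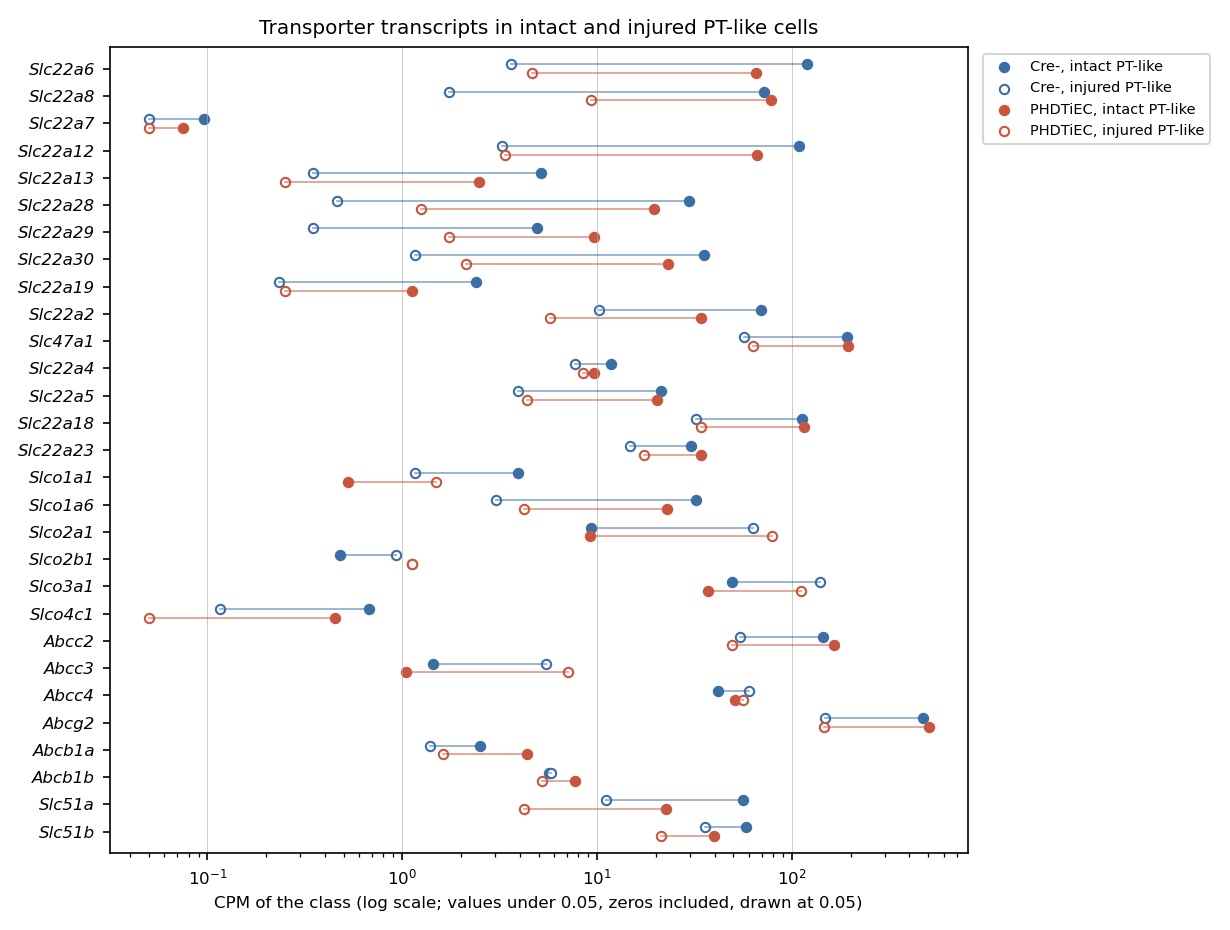
CPM of each transporter in intact (filled) and injured (open) PT-like cells of the Cre- (blue) and PHDTiEC (red) libraries, on a log scale with values under 0.05 drawn at 0.05, and a line joining the classes of a library. Most open points lie left of the filled ones, far so for Slc22a6, Slc22a8, Slc22a12, Slc22a28 and Slc22a30, while those of Slco2a1, Slco3a1 and Abcc3 lie to the right.

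A list of 42 related genes, other transporters with the scaffolds and regulators of PT transport, gave 32 with enough UMIs. Of these, 11 (34.4%) were at least 2-fold lower in injured cells in both libraries and 4 (12.5%) at least 2-fold higher, with median log2 ratios of -0.64 and -0.75. The lowest ratio belonged to *Slc13a3* (NaDC3), the basolateral dicarboxylate carrier that feeds OAT1 and OAT3 their exchange partner, at 30.4 and 1.74 CPM in *Cre-* cells (-4.13, -4.98 to -3.38) and 27.7 and 1.87 CPM in PHDTiEC cells (-3.89, -4.74 to -3.15). *Slc16a9*, a monocarboxylate carrier, had ratios of -2.65 (-3.11 to -2.22) and -2.68 (-3.16 to -2.23). *Slc17a3*, an apical organic anion carrier, stood at 91.0 and 21.3 CPM (-2.10, -2.34 to -1.86) in the PHDTiEC library. Carriers of both membranes are thus among the lowest of the related genes. At the upper end, the export pump *Abcc1* (MRP1) stood at 3.07 and 12.6 CPM (2.04, 1.46 to 2.66) and at 2.70 and 14.9 CPM (2.47, 1.92 to 3.05). *Slc22a15* was higher in injured *Cre-* cells (1.37, 0.98 to 1.77), the nucleoside carrier *Slc29a1* in injured PHDTiEC cells (2.33, 1.73 to 2.97), and the xenobiotic receptor *Ahr* in both (0.70, 0.23 to 1.18, and 1.06, 0.63 to 1.5). The following regulator was picked after its values were seen. *Hnf4a*, a nuclear receptor that maintains PT identity, stood at 157 and 55.1 CPM (-1.51, -1.66 to -1.36) and at 152 and 50.3 CPM (-1.59, -1.75 to -1.44).

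The intact class was not uniform for these genes. Clustered again without the transporters, it split into 5 subclusters, numbered 0 to 4, and their summed transporter levels over both libraries were 1116, 2881, 1829, 1430 and 1216 CPM. Subcluster 0 was led by *Mgp*, *Hspb1*, *S100a6*, *Ccl2* and *Havcr1*, and its *Havcr1* level was 479 CPM against 160 CPM in subcluster 1 and 41.9 CPM in subcluster 2. Subcluster 1 was led by *Kap*, the kidney androgen-regulated protein, and by genes that include *Slc22a6*, *Slc22a12* and *Slc13a3*. It held the highest level of the S3 segment markers, at 450 CPM against 137 to 235 CPM in the others. Subcluster 2 was led by *Spp2*, *Dpep1*, *Slc34a3* and *Slc6a19* and held the highest level of the S1 and S2 segment markers. Subcluster 3 was led by the immediate response genes *Irf1*, *Socs3* and *Cebpd*. Subcluster 4 was led by the macrophage genes *Lyz2* and *C1qb*, with 1480 CPM of the macrophage markers against 39.7 to 57.5 CPM in the others. The part of macrophage RNA or of mixed droplets in it was not tested.

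The uptake carriers were concentrated in subcluster 1. *Slc22a6* stood there at 369 CPM, against 39.8, 41.9, 32.1 and 69.5 CPM in subclusters 0, 2, 3 and 4. *Slc22a12* stood at 305 CPM against 24.5 to 93.0 CPM, and *Slc22a2* at 153 CPM against 23 to 39.7 CPM. *Slc22a8* was spread over 2 subclusters, at 201 CPM in subcluster 1 and 126 CPM in subcluster 2, with 13, 37.9 and 58.9 CPM in the rest. *Slc22a29* was highest in subcluster 2, at 15.6 CPM. The exporters varied less, with *Abcg2* between 352 and 622 CPM, *Slc47a1* between 140 and 291 CPM and *Abcc2* between 105 and 235 CPM. Over the transporters, the median ratio of injured cells to each subcluster was below 0 in both libraries: the median log2 ratio of injured cells against subcluster 0, the nearest, was -1.17 and -1.03, and against subcluster 1, the farthest, -2.32 and -2.30.

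The libraries filled the subclusters differently. Subcluster 1 held 28.6% (24.3% to 33.1%) of intact *Cre-* cells and 18.2% (15.2% to 21.5%) of intact PHDTiEC cells, and subcluster 0 held 26.5% (22.3% to 30.9%) and 35.0% (31.2% to 39.0%). The shares of subclusters 2, 3 and 4 were closer, at 21.3% and 21.5%, 14.5% and 15.7%, and 9.13% and 9.60%. Cells of the intact class with and without a *Havcr1* UMI also differed: those without one had 2068 and 1760 CPM of transporters at a median depth of 14876 and 17099 UMIs, and those with one had 1534 and 1353 CPM at 23869.5 and 18594 UMIs. Any level over the whole intact class therefore mixes the level within subclusters with their shares. In the injured class, cells without and with a *Havcr1* UMI had 494 and 690 CPM of transporters in the *Cre-* library. In the PHDTiEC library they had 667 and 641 CPM.

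**Figure D3:**
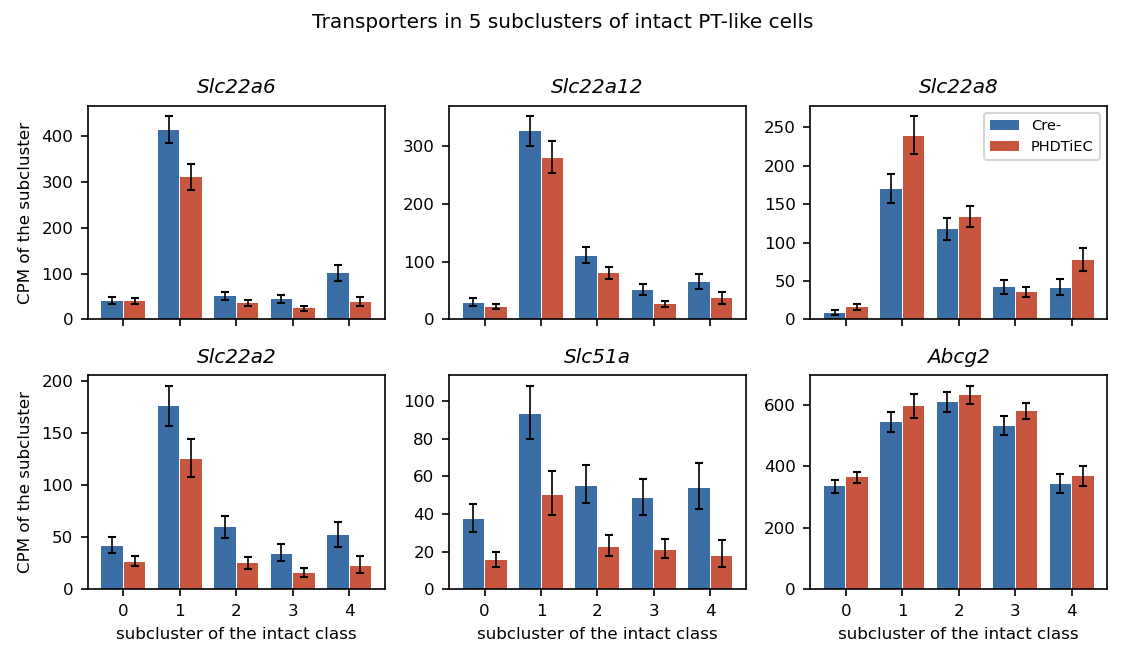
CPM of 6 transporters in the 5 subclusters of intact PT-like cells, for the Cre- (blue) and PHDTiEC (red) libraries, with bars from 0 and exact 95% intervals for counting error. Slc22a6, Slc22a12 and Slc22a2 are highest in subcluster 1, Abcg2 varies less, from 352 to 622 CPM over both libraries, and the red bar of Slc51a is below the blue one in each subcluster.

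Between the libraries, which asks whether PT transport genes differ when the floxed genes are targeted in endothelium, the intact cells of the library labelled PHDTiEC had lower levels of *Slc51a*, *Slc22a2*, *Slc22a6* and *Slc22a12* and similar levels of *Slc47a1*, *Abcg2* and *Slc22a18*. Of the 28 transporters with at least 10 UMIs, 17 were lower and 11 higher, with a median log2 ratio of -0.35, beside 0.03 over all genes. Of all 13995 genes, 6374 were lower and 7621 higher. At least 2-fold lower were 5 (17.9%: *Slc22a2*, *Slc22a13*, *Slc22a19*, *Slco1a1* and *Slc51a*), and 2.94% of all 13995 genes were. At least 2-fold higher was 1 (3.57%: *Slco2b1*, on 5 and 15 UMIs), beside 2.78% of all genes. Without the cells of low complexity described further on, the median was 0.01. In that set, 3 of the 28 were at least 2-fold lower and 2 at least 2-fold higher. The share over all genes is not given for that set of cells.

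*Slc51a* (chr16:32474504-32487879) stood at 55.8 CPM in intact *Cre-* cells and 22.5 CPM in intact PHDTiEC cells, 2.48-fold lower (-1.31, -1.52 to -1.11), and at 11.1 and 4.23 CPM in injured cells (-1.40, -2.0 to -0.82). Its UMIs were found in 54.1% of intact *Cre-* cells and 28.1% of intact PHDTiEC cells, or 10.4% and 4.37% after thinning to 2000 UMIs, against 0.447% and 0.520% of macrophage-like cells before thinning. *Slc51a* was lower in all 5 subclusters, by log2 ratios from -1.59 to -0.90 with every interval below 0, so its direction was the same within each subcluster as in the class. Its partner *Slc51b* stood at 57.9 and 39.5 CPM (-0.55, -0.72 to -0.38) in intact and at 35.6 and 21.3 CPM (-0.74, -1.02 to -0.47) in injured cells, and was lower in 4 of 5 subclusters.

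*Slc22a2* stood at 69.4 and 34.2 CPM in intact cells, 2.03-fold lower in the library labelled PHDTiEC (-1.02, -1.19 to -0.85), and at 10.2 and 5.73 CPM in injured cells (-0.83, -1.38 to -0.30). It was lower in all 5 subclusters, from -1.26 to -0.49, each interval below 0. *Slc22a6* stood at 119 and 65.5 CPM in intact cells (-0.86, -0.99 to -0.74), and was lower in all 5 subclusters from -1.41 to -0.03, with 4 intervals below 0. In subcluster 1, where most of it was, *Slc22a6* stood at 415 and 311 CPM (-0.41, -0.58 to -0.25), a smaller difference than in the whole class. *Slc22a12* stood at 109 and 66.1 CPM (-0.72, -0.85 to -0.59), and its subclusters ran from -0.94 to -0.22, with 4 intervals below 0. In injured cells neither *Slc22a6* (0.36, -0.37 to 1.09) nor *Slc22a12* (0.05, -0.77 to 0.87) had a detectable difference at this depth, with 27 to 37 UMIs in each library.

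Other carriers were lower or higher by smaller ratios or on fewer UMIs. *Slc22a28* (-0.59, -0.83 to -0.35), *Slc22a30* (-0.61, -0.83 to -0.39) and *Slco1a6* (-0.51, -0.74 to -0.28) were lower in intact PHDTiEC cells, and each in 4 of 5 subclusters. *Slco3a1* stood at 49.3 and 37.0 CPM (-0.41, -0.59 to -0.23) and was lower in all 5 subclusters and in injured cells (-0.32, -0.45 to -0.20). *Slc22a29* went the other way, at 4.89 and 9.67 CPM in intact cells (0.98, 0.51 to 1.48), and was higher in all 5 subclusters and in injured cells, there on 3 and 14 UMIs. *Slc22a13* and *Slco1a1* rest on a few cells, since 1 *Cre-* cell held 36 of the 54 *Slc22a13* UMIs and 1 held 23 of the 41 *Slco1a1* UMIs.

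*Slc47a1*, *Abcg2* and *Slc22a18* differed little between the libraries. In intact cells, *Slc47a1* stood at 192 and 194 CPM (0.02, -0.07 to 0.10), *Abcg2* at 472 and 502 CPM (0.09, 0.03 to 0.14) and *Slc22a18* at 112 and 115 CPM (0.03, -0.08 to 0.15). The counting error alone bounds these differences to under 0.2 log2 units in either direction. *Abcc2* stood at 144 and 164 CPM (0.19, 0.10 to 0.29) and *Abcc4* at 41.8 and 51.1 CPM (0.29, 0.11 to 0.47). *Abcg2* and *Abcc2* were higher in all 5 subclusters, with ratios from 0.06 to 0.13 and from 0.03 to 0.48. *Abcc4* was higher in 4 of 5 subclusters, 2 of them with an interval above 0 (0.88, 0.24 to 1.54 in subcluster 1, and 0.65, 0.24 to 1.08 in subcluster 2). *Abcb1a*, on 26 and 58 UMIs, was higher in intact PHDTiEC cells (0.80, 0.11 to 1.53) and in the 4 subclusters with at least 10 UMIs, by ratios from 0.94 to 1.96 that each had an interval including 0. *Slc22a8* stood at 71.7 and 77.5 CPM over the whole intact class (0.11, -0.02 to 0.25). Within subclusters it was higher in 4 of 5, with intervals above 0 in subclusters 0 (0.87, 0.18 to 1.61), 1 (0.49, 0.27 to 0.71) and 4 (0.90, 0.43 to 1.39). *Slc22a4* had a ratio of -0.29 (-0.65 to 0.08), *Slc22a5* of -0.07 (-0.33 to 0.20), *Slc22a23* of 0.17 (-0.04 to 0.38), *Slco2a1* of -0.01 (-0.41 to 0.39) and *Abcb1b* of 0.44 (-0.04 to 0.92), all with intervals that include 0.

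In injured PT-like cells, 25 transporters had at least 10 UMIs, 8 of them lower and 17 higher, with a median of 0.16 beside 0.06 over all genes. Of all 14285 genes, 5840 were lower and 8445 higher. *Slc51a* was the 1 transporter at least 2-fold lower (4.0%, beside 1.92% of all 14285 genes). At least 2-fold higher were 3, *Slc22a8*, *Slc22a28* and *Slc22a29* (12%, beside 4.28% of all genes). *Slc22a28* rests on 4 and 10 UMIs (1.42, -0.37 to 3.55), with an interval that includes 0. *Slc22a29* rests on 3 and 14 UMIs (2.32, 0.48 to 4.76). *Slc22a8* had 15 and 75 UMIs, or 1.74 and 9.34 CPM (2.42, 1.61 to 3.33), found in 2.77% and 7.91% of the injured cells, and 1 PHDTiEC cell held 16 of the 75. Its level in barcodes with under 100 UMIs was 13.9 and 9.86 CPM, above that in injured cells of both libraries. The estimated share of free RNA in injured cells was 4.15% in the *Cre-* and 14.1% in the PHDTiEC library, and its part in the difference was not tested. *Slco2a1* stood at 62.8 and 78.6 CPM (0.32, 0.16 to 0.49).

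**Figure D4:**
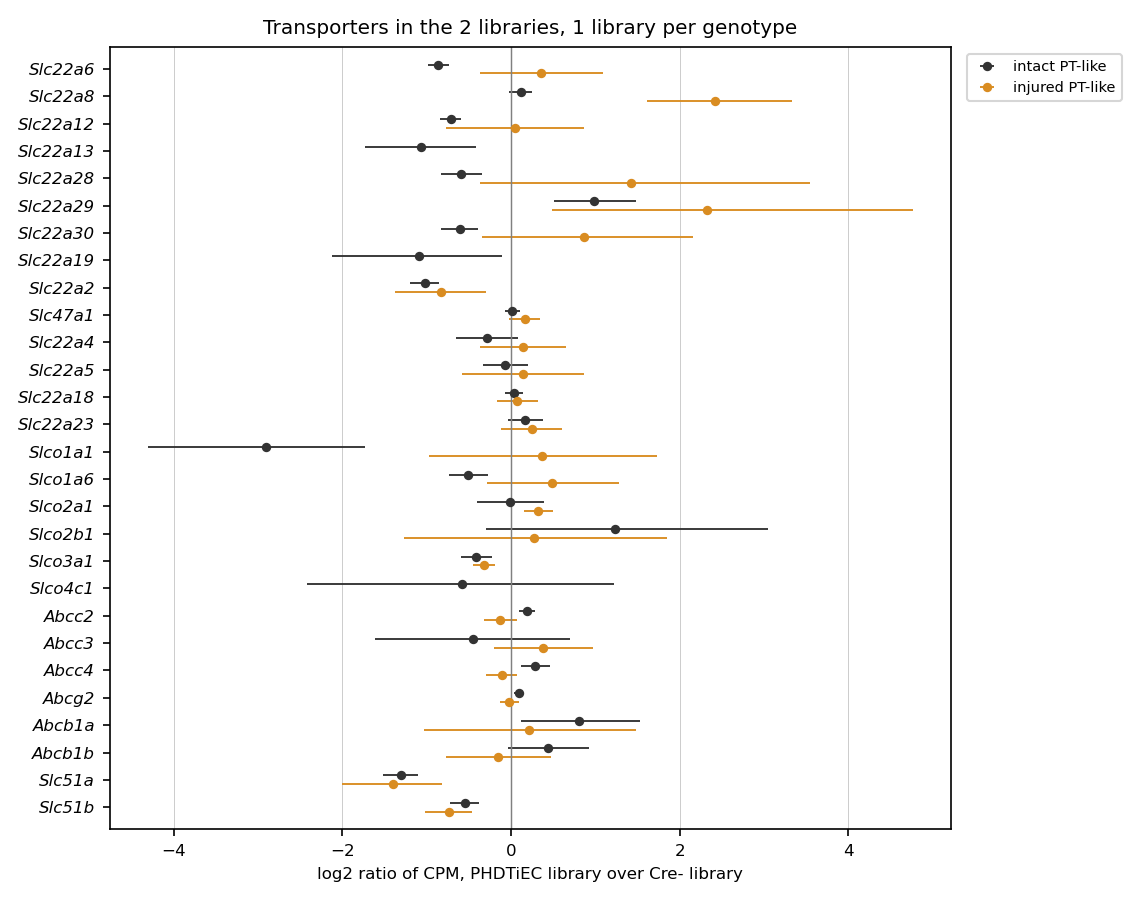
Log2 ratio of CPM, PHDTiEC library over Cre- library, for each transporter with at least 10 UMIs in intact (black) or injured (orange) PT-like cells, with exact 95% intervals for counting error. Slc51a and Slc22a2 lie left of 0 in both classes, Slc22a6 and Slc22a12 in intact cells, and Slc47a1, Abcg2 and Slc22a18 lie close to 0.

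Genes that are no transporters of the list moved with the library contrast in intact cells, and were picked after their values were seen. *Kap* stood at 2059 CPM in *Cre-* and 103 CPM in PHDTiEC cells (-4.33, -4.41 to -4.25), with UMIs in 26% and 6.4% of cells. *Cyp2e1* stood at 342 and 141 CPM (-1.28, -1.36 to -1.20), *Slc7a13* at 25.6 and 6.45 CPM (-1.99, -2.36 to -1.63), and the 5 markers of the S3 segment at 289 and 166 CPM together. The 20 cells with the most held 84.1% and 98.7% of the *Kap* UMIs, and 92.5% and 100% of the *Slc7a13* UMIs. Their part in the lower uptake carriers was not tested. Both libraries had the Y-linked *Ddx3y* at like levels, 43.6 and 43.0 CPM, as for male mice. Among the related genes, low ratios included that of the bile acid carrier *Slc10a2* (-0.37, -0.50 to -0.24), and the highest were those of *Ppara* (0.51, 0.22 to 0.81), *Nfe2l2* (0.40, 0.28 to 0.52) and *Abcc5* (0.37, 0.10 to 0.64). Of the 31 related genes measured, 1 was at least 2-fold lower, *Slc22a21*, and 0 at least 2-fold higher.

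The median over the list depended on a handful of cells, the named carriers less. Complexity divides the log10 of the genes seen in a cell by the log10 of its UMIs. The study left out cells below 0.8, a limit that was not applied to the main values here. This limit leaves out 6 of 427 *Cre-* and 11 of 594 PHDTiEC intact cells, whose median depth was 77065 and 80658 UMIs. Without them, the median ratio of the transporters in intact cells was 0.01, with 14 lower and 14 higher. *Slc51a* (-1.34, -1.56 to -1.13), *Slc22a2* (-1.0, -1.18 to -0.83), *Slc22a6* (-0.89, -1.02 to -0.77), *Slc22a12* (-0.69, -0.82 to -0.56) and *Slc22a29* (1.00, 0.52 to 1.5) kept their differences, while *Slc22a13* turned from -1.06 to 0.51 and *Slc22a19* moved to -0.60 (-1.73 to 0.51). The 3 transporters still at least 2-fold lower were *Slc22a2*, *Slco1a1* and *Slc51a*, and the 2 at least 2-fold higher were *Slc22a29* and *Slco2b1*, with no share over all genes beside them. Within subclusters 0 to 4 the medians over the transporters were -0.03, 0.00, -0.07, -0.24 and -0.26 in all cells, and 0.12, 0.00, -0.07, -0.12 and -0.36 with the limit.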

How the data were processed

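The authors aligned the reads of each 10x Chromium 3′ library to mm10 with Cell Ranger (version 4 in the file headers) and deposited raw UMI counts per gene and barcode, unfiltered. Barcodes with 500 to 100000 UMIs, at least 200 genes and at most 50% mitochondrial UMIs were kept. The study's further limit of 0.8 on complexity was used only as an alternative. The libraries held 136004367 and 146758812 UMIs. Cells were clustered in Seurat 5.3.0 under R 4.3.3 (20 components, resolution 0.8), with 23 of the transporters and related genes removed from the variable genes, and clusters were named from marker lists by judgement. Of 30 clusters, those without a clear list stayed unnamed. UMIs were summed per class and divided by the class total (CPM, not scaled by length). Members, gene lists and thresholds were chosen with earlier results of these data known. Transporters with at least 100 UMIs in intact cells are given in full, the others by counts, and of the related genes the 3 highest and 3 lowest, of which some are not reported here. Genes needed 10 UMIs over the sums compared. The ratio script was tested on simulated data. The Scrublet caller (scanpy 1.11.5) marked 0 doublets in both libraries, so doublets were not removed. Coordinates come from GENCODE vM21 (GRCm38) and RefSeq promoters. 1 library per genotype allows no test. Alternatives covered filters, clustering, scaling, thresholds and free RNA.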

Additional observations from a re-analysis of the deposited data

How the results depend on the processing

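No paired analysis was possible because each genotype has 1 library. The lower transporter level in injured PT-like cells kept its direction in all alternatives run, with medians from -2.04 to -0.67 (*Cre-*) and from -2.04 to -0.57 (PHDTiEC), and 6 to 18 transporters at least 2-fold lower. Splitting all PT-like cells by a *Havcr1* UMI gave medians of -0.6701 and -0.5715 and a count of 6. The share over all genes is not given beside the counts of the alternatives. Centring on the median of all genes gave -2.0356 and -2.0371, and clustering at a resolution of 1.2 gave -1.3038 in the PHDTiEC library. At a resolution of 0.4, intact and injured cells merged, so this contrast has no value there. The median between libraries ran from -0.38 to 0.01 in intact and from -0.13 to 0.29 in injured cells, so the sign of neither median held in all alternatives, and with a complexity of at least 0.8 the intact median was 0.01. Alternatives added after seeing the data left out barcodes with a doublet score over 0.2, the macrophage-led subcluster and the subcluster with the highest *Havcr1*. Removal of called doublets gave no value, as 0 were called. Depth limits *Slc22a7*, *Slc22a13*, *Slc22a19*, *Slco1a1*, *Slco2b1*, *Slco4c1*, *Abcc3* and *Abcb1a*, with under 100 UMIs each in intact cells.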
